A study of Mus musculus with 12 samples.

Results

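Matrix metalloproteinases are zinc-dependent enzymes that cut collagens, other matrix proteins and many cell-surface and secreted proteins, and the tissue inhibitors of metalloproteinases (Timp genes) block them by binding their active site. The 10 genes described here were chosen by name from the 32285 gene rows of the deposited matrices: the secreted gelatinase Mmp2, the stromelysins Mmp3 and Mmp10, the furin-activated Mmp11, the macrophage elastase Mmp12, the collagenase Mmp13, the membrane-anchored Mmp14, and the inhibitors Timp1, Timp2 and Timp3. All 10 were matched by symbol and identifier. In tumours these proteins are known to come from tumour cells and from the stroma around them. Mmp14 activates the proenzyme of Mmp2 with the help of Timp2, stromelysins activate other proenzymes, and Timp3 stays bound to the matrix and also inhibits ADAM and ADAMTS proteases.

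The values are counts of unique molecular identifiers (UMIs, 1 per captured transcript) from single cells of dissociated mouse tumours of SCC35 lines, in a series on melanoma rejection. The control group holds the lines numbered 15 and 18 and the KO group the lines numbered 19 and 24, labelled as knockouts of Mif, a secreted cytokine. Hashtag antibodies split the cells into 45 samples by line, day (0, 6, 10 or 16) and letter: 21 control samples (3, 6, 6 and 6 at the 4 days), 21 KO samples (4, 5, 6 and 6) and 3 tumours called WT in the sheet, which the labels put in no group and which entered no test between groups. No source used here gives the mouse strain, the way the lines were made or what a day 0 sample was, nor whether a line is 1 clone. Every sample of a line comes from that line, so p-values over samples describe these 4 lines and no others.

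Marker genes, none of them a member, sorted 100459 single-hashtag cells into classes. The line compartment (67795 cells with few markers of the other classes) had Xist, an RNA of female cells, at 6.09 CPM (a gene's UMIs scaled to an equal total for every sum), against 267 CPM in fibroblast-like cells and 352 CPM in macrophage-like cells. UMIs were summed per sample and class where at least 20 cells were present: 45 sums of the line compartment, 38 of macrophage-like and 34 of fibroblast-like cells, the last 2 all from days 6 to 16. The sums held 1933172 to 25814295 UMIs in the line compartment, 177435 to 3755285 in macrophage-like and 123927 to 1321798 in fibroblast-like cells. Mif in the line compartment was 1777 to 3113 CPM in line 15 and 1826 to 2675 CPM in line 18, against 42.7 to 265 CPM in line 19 and 224 to 717 CPM in line 24, so every KO sample lay below every control sample.

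Mmp13, Mmp12, Mmp3 and Mmp10 lie in that order within 238 kb of chromosome 9 (7272514 to 7510240, GENCODE M21 on GRCm38). In these tumours most Mmp12 and Mmp13 UMIs were in macrophage-like cells, while fibroblast-like cells held the largest shares of Mmp3 and Mmp10. The 4 neighbours are shown first because the bases before their starts carry a common motif. The end of Mmp12 overlaps Mmp1b on the other strand, and no source used here states the strand setting of the counting. The 250 bases before each start were searched on both strands for an AP-1 motif, TGANTCA, and separately for the usual letters of a TATA box, TATAAA. RefSeq promoters on GRCm38.p6 were found for 9 of the 10 genes, and Mmp2 had no entry. The AP-1 motif stood before 4 genes, Mmp13, Mmp3, Mmp10 and the second of 2 starts of Mmp12, and in 6.75% of all 32851 promoters. The TATA box letters stood before Mmp13, Mmp3 and Mmp10 and in 12.4% of all promoters, and 1.21% had both. Neither was found before Mmp11, Mmp14, Timp1, Timp2 or Timp3. The 90 bases before the start, all on the plus strand, read as follows, with both motifs in capitals.
Mmp13 (chr9:7272424-7272513): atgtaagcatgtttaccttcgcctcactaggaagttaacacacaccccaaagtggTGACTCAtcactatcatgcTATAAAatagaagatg
Mmp12 second start (chr9:7347284-7347373): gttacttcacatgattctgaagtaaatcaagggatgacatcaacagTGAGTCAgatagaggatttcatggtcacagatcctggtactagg
Mmp3 (chr9:7445732-7445821): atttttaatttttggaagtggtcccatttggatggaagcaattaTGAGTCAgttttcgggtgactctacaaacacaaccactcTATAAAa
Mmp10 (chr9:7502252-7502341): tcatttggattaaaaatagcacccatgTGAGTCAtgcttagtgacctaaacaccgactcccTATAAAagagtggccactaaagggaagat
A match is a description of these letters and not of binding. The other members lie elsewhere: Mmp2 on chromosome 8 (92827291 to 92853420), Mmp11 (75923222 to 75936496, minus strand) and Timp3 (86300372 to 86349506) on chromosome 10, Timp2 on chromosome 11 (118301069 to 118355740, minus strand), Mmp14 on chromosome 14 (54431612 to 54445364) and Timp1 on chromosome X (20870166 to 20874735).

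The first question was which cells held each gene in the tumours of days 6 to 16. Macrophage-like cells were 14.7% of the cells of these control and KO tumours and held 86.7% of Mmp12 UMIs and 73.0% of Mmp13 UMIs. Fibroblast-like cells were 2.08% of the cells and held 72.1% of Mmp10 UMIs, 51.0% of Timp3 UMIs, 45.5% of Mmp3 UMIs and 25.3% of Mmp2 UMIs. The pooled share of Mmp3 differed from that of the single tumours: the line compartment held 40.1% of all Mmp3 UMIs, but in the median of 34 tumours with at least 20 Mmp3 UMIs it held 6.13%, and fibroblast-like cells held 85.9%. The line compartment, with 65.0% of the cells, held 84.6% of Mmp11, 83.6% of Timp2, 83.3% of Timp1, 67.1% of Mmp14 and 66.7% of Mmp2 UMIs. These shares depend on how many cells of each kind were captured.

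**Figure D1:**
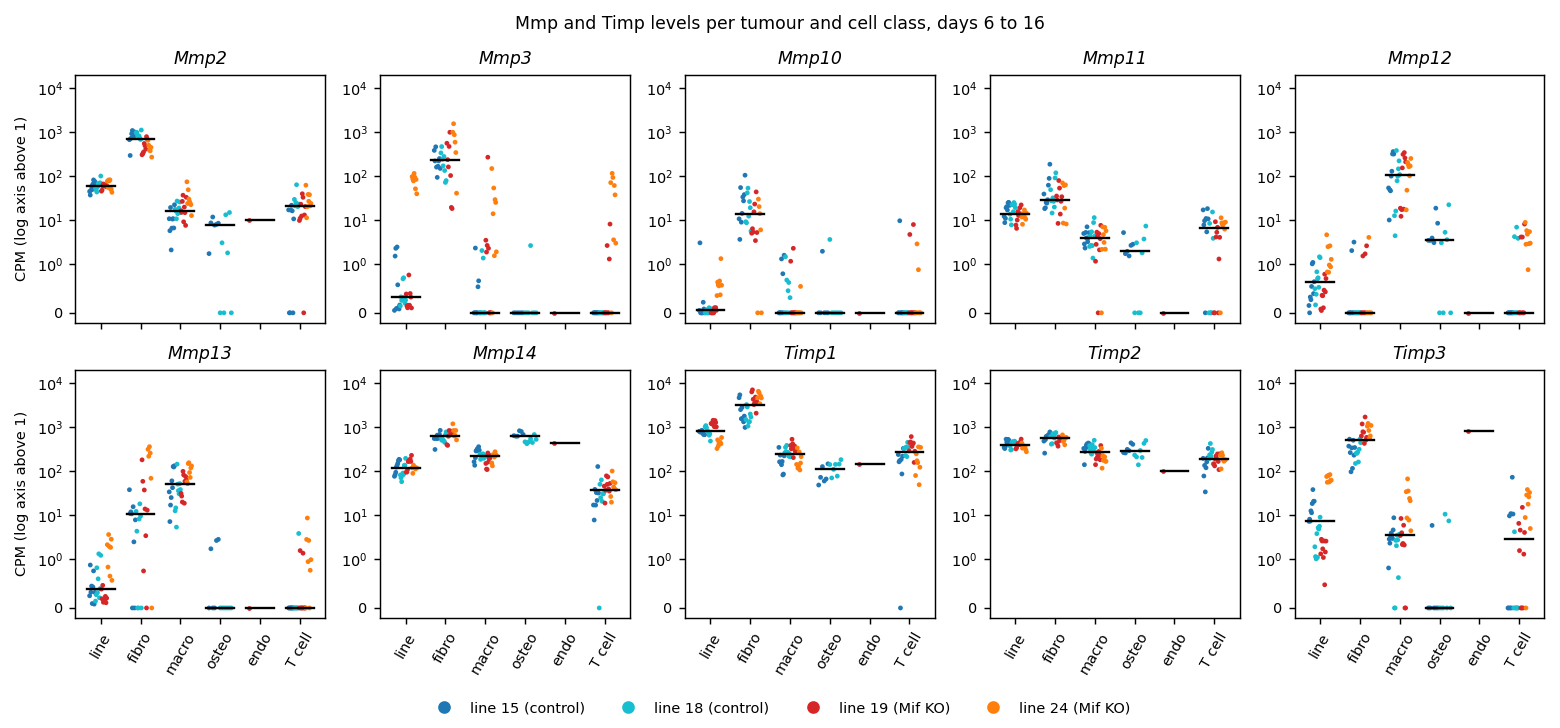
CPM of each of the 10 genes (symmetric log axis) in 6 cell classes, 1 point per tumour of days 6 to 16, coloured by line, with a black bar at the median. Mmp12 stands highest in macrophage-like cells and Mmp2, Mmp3 and Mmp10 in fibroblast-like cells, Timp3 is high in fibroblast-like cells and in the only endothelial-like point (792 CPM), and Mmp14 is high in both fibroblast-like and osteoclast-like cells.

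Within tumours, fibroblast-like cells were set against the line compartment of the same tumour (34 tumours, the WT tumours included). Of the 8 members that passed the low-count filter, all 8 were higher in fibroblast-like cells, with a median log2 fold change of 3.10. A gene as low in the line compartment as Mmp10 (0.17 CPM summed) could pass the filter only through fibroblast-like cells. Mmp3 and Timp3 were also low in the line compartment of several lines and passed only with the fibroblast-like sums. The count, the median and the p-values of Mmp3 and Timp3 are therefore shaped by the filter. They are not read as a result about the members. Without the filter the log2 fold changes of Mmp3 and Timp3 were 7.18 and 5.67. Over all genes tested, 74.1% differed in either direction and 34.2% were higher and 39.9% lower, so a call alone sets no gene apart, and the sizes carry the description. Mmp3, the stromelysin, averaged 326 CPM ± 330 (SD, n = 34) in fibroblast-like cells and 15.7 CPM ± 34.0 (SD, n = 34) in the line compartment (log2 fold change 7.31, SE 0.53, adjusted p by edgeR 5.4e-16). It was higher in 33 of 34 tumours. This fitted value compares the classes tumour by tumour and is larger than the ratio of the means, and with a line left out it ran from 6.54 (without line 19) to 8.90 (without line 24). Timp3, the matrix-bound inhibitor, averaged 539 CPM ± 361 against 19.96 CPM ± 26.1 (SD, n = 34 each) and was higher in 34 of 34 tumours (log2 fold change 5.80, SE 0.38, adjusted p by edgeR 1.3e-17; 4.94 without line 19 to 6.38 without line 15). Mmp2 and Mmp14, the pair in which one activates the other, were also higher in 34 of 34 tumours, with log2 fold changes of 3.596 (SE 0.11) and 2.61 (SE 0.07). The remaining log2 fold changes were 7.28 for Mmp10, 2.10 for Timp1, 1.64 for Mmp11 and 0.64 for Timp2. Mmp12 and Mmp13 did not pass the filter, and without it their log2 fold changes were -0.30 (adjusted p by edgeR 0.73) and 5.41 (1.5e-15). Mmp13 averaged 49.4 CPM in fibroblast-like cells, most of it in a few tumours of the KO lines described below, and Mmp12 averaged 0.44 CPM, which is 0 to 4.004 CPM in each tumour.

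In droplet data free RNA adds UMIs to every cell, and T-cell-like cells were taken as a reference level for it. Their own expression of these genes was not tested. Osteoclast-like cells, described below, lay under T-cell-like cells of the same tumour in 9 of 10 tumours for Timp1 and for Mmp2. The T-cell-like level is therefore not a common background of all classes. Summed over 4850 T-cell-like cells, Mmp2 was 23.7 CPM, Mmp3 19.7 CPM, Mmp14 45.2 CPM, Timp1 274 CPM, Timp2 186 CPM and Timp3 13.9 CPM, while Mmp12 was 2.54 CPM and Mmp13 1.23 CPM. With each cell thinned to 1000 UMIs, a Mmp2 UMI was found in 43.3% of 1955 fibroblast-like cells, 6.90% of 64325 line-compartment cells and 1.59% of 4220 T-cell-like cells. For Mmp3 these shares were 12.5%, 1.22% and 0.66%, and for Timp3 27.3%, 2.23% and 1.23%. The pooled line-compartment and T-cell-like values of Mmp3 come mostly from line 24: by line, the thinned shares in the line compartment were 0.048%, 0.071%, 0.027% and 6.13% in lines 15, 18, 19 and 24, and in T-cell-like cells 0%, 0%, 0.080% and 1.24%. For Timp3 the T-cell-like shares were 0.32%, 0%, 0.56% and 1.88%. The T-cell-like cells of the WT tumours, which are in the pooled values, had 0.71% for Mmp3 and 2.14% for Timp3. In fibroblast-like cells the lowest of these lines had 10.1% for Mmp3 and 16.3% for Timp3, and the WT tumours had 7.14% and 23.4%. Before thinning, at median depths of 7323, 7888 and 1734 UMIs, the Mmp3 shares were 26.2%, 2.98% and 1.34%. Fibroblast-like cells therefore stood above the T-cell-like level for Mmp2, Mmp3 and Timp3 at equal depth. Thinning does not equalise the share of free RNA in a cell.

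Macrophage-like cells carried another part of the family. Compared with the line compartment of the same 38 tumours, 3 of the 8 members tested were higher and 5 lower, among a background of 82.9% of genes called (39.5% higher, 43.4% lower), with a median log2 fold change of -0.83. Of the 3, Mmp12 and Mmp13 are so low in the line compartment that they could pass the low-count filter only through macrophage-like cells. Mmp12, the elastase named for this cell type, averaged 140 CPM ± 114 against 0.83 CPM ± 0.87 (SD, n = 38 each; log2 fold change 7.76, SE 0.21, adjusted p by edgeR 1.4e-32). Mmp13, a collagenase that cuts fibrillar collagen, averaged 66.4 CPM ± 45.6 against 0.73 CPM ± 0.80 (SD, n = 38 each; log2 fold change 6.93, SE 0.20, adjusted p by edgeR 2.1e-31). Both were higher in 38 of 38 tumours, and higher than in T-cell-like cells in 35 of 35 tumours. Mmp14 was higher in 35 of 38 tumours (log2 fold change 1.05). Mmp11, Timp1, Mmp2, Timp3 and Timp2 were lower, by log2 fold changes of -1.64, -1.52, -1.52, -1.30 and -0.37. Of these, Mmp2 and Timp1 in macrophage-like cells lay above the T-cell-like level of the same tumour in only 17 and 16 of 35 tumours. Mmp11 and Timp3 did so in 13 and 17. The macrophage level of these 4 genes was therefore not set apart from the T-cell-like level, and the part of free RNA in it was not tested. Timp2 lay above it in 27 of 35. With each cell thinned to 1000 UMIs, 8.31% of 12970 macrophage-like cells had a Mmp12 UMI and 5.83% a Mmp13 UMI, against 0.33% and 0.14% of T-cell-like cells and 0.08% and 0.09% of line-compartment cells. The unthinned shares in macrophage-like cells were 13.8% and 11.1%.

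Osteoclast-like cells, multinucleated bone-resorbing cells of the myeloid lineage, reached 20 cells in 13 tumours, all of the control lines. Their Mmp14 was 416 to 820 CPM with a median of 617 CPM. It lay above the line compartment in 13 of 13 tumours and above macrophage-like cells in 13 of 13. Mmp12 was 0 to 22.1 CPM and Mmp13 0 to 2.80 CPM there. Endothelial-like cells, 309 in all, had summed levels of 387 CPM for Timp3 and 370 CPM for Mmp14. Their only tumour with 20 such cells, line 19 at day 6, had 792 and 427 CPM. Thinned to 1000 UMIs, 34.7% of 303 endothelial-like cells had a Timp3 UMI, and 72.2% had one before thinning, beside 58.7% of fibroblast-like cells. Keratinocyte-like cells (130 in all) summed to 330 CPM for Timp3 and 80.0 CPM for Mmp13, the latter from 46 UMIs.

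The second question was what the lines and groups did in the line compartment itself. Between KO and control samples, with day as a term, 3 of the 6 members tested passed the threshold, 2 higher and 1 lower in KO, where 51.2% of all genes did, 26% higher and 25.1% lower. The members' median log2 fold change was 0.12 and that of all genes 0.00. Each of the 3 calls was lost or turned when a line was left out. Timp3 was 0.47 to 108 CPM in the 21 KO samples (median 2.82) and 1.01 to 37.8 CPM in the 21 control samples (median 7.26). The 2 KO lines lay apart: line 24 ran from 55.4 to 108 CPM (median 76.4, 10 samples) and line 19 from 0.47 to 2.82 CPM (median 2.55, 11 samples). Line 15 had 7.17 to 37.8 CPM (median 18.2, 11 samples) and line 18 1.01 to 8.92 CPM (median 3.96, 10 samples). Every sample of line 24 lay above all 32 of the other 3 lines, and the 11 samples of line 19 lay below all of line 15. The share of all genes that part the lines in this way was not counted, so the separation is not read as particular to Timp3. The group difference (log2 fold change 1.79, SE 0.57, adjusted p by edgeR 0.0088) turned to -2.17 (adjusted p 0.00016) without line 24. The 3 WT tumours had 17.3, 18.1 and 33.4 CPM.

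Mmp3 in the line compartment stood out in line 24. Its 10 samples had 39.1 to 198 CPM (median 89.0). Line 15 had 0 to 2.43 CPM (median 0.159), line 18 0 to 0.717 CPM (median 0.286), line 19 0 to 0.774 CPM (median 0.155), and the 3 WT tumours 0.750, 1.02 and 4.89 CPM. Every sample of line 24 lay above all 32 samples of the other 3 lines, and the highest 2 were the day 0 samples (198 and 184 CPM). The share of all genes that set line 24 apart in this way was not counted. The 10 fibroblast markers summed in the line compartment to 4.02 to 24.5 CPM in the 7 day 0 samples, and Dcn, 1 of them, was at 0.322 to 5.17 CPM. Over all days they summed to 21.1 to 28.4 CPM in line 24. In lines 15, 18 and 19 they summed to 4.02 to 35.5, 14.6 to 37.4 and 4.03 to 23.5 CPM. The gate of the line compartment allowed at most 1 of these markers in a cell. Their part in the Mmp3 level was not tested. A Mmp3 UMI was found in 13.8% of 13586 line-compartment cells of line 24 (6.13% at 1000 UMIs), and in 0.192%, 0.185% and 0.203% of those of lines 15, 18 and 19. Median depths were 4308 UMIs in line 24 and 5878 to 10040.5 UMIs in the other 3 lines. Mmp3 did not pass the filter in the comparison of groups, and its levels in line 19 lay in the range of the control lines, so no group difference is given for it.

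Mmp3 UMIs were also found in other cell classes of the library of line 24. In T-cell-like cells of line 24 tumours Mmp3 was 37.0 to 114 CPM in the 5 tumours of the library that held only this line and 0, 2.96 and 3.53 CPM in its 3 tumours of a mixed library. It was 0 CPM in all 15 control tumours with enough T-cell-like cells. In macrophage-like cells of line 24 it was 13.8 to 147 CPM in its own library and 0 to 1.88 CPM in the mixed library. A WT tumour of day 10 had 102 CPM in T-cell-like cells, from 13 UMIs. Macrophage-like cells of 1 line 19 tumour of day 10 had 265 CPM, and all 124 of those UMIs came from 1 of its 100 cells. Mmp3 in macrophage-like cells is for these reasons not described as a level of that class.

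Timp1, a secreted inhibitor, parted the KO lines in the opposite direction. From day 6 on it was 1004 to 1414 CPM in line 19 (median 1201, 9 tumours) and 323 to 575 CPM in line 24 (median 437, 8 tumours). The medians of the control lines lay between, with 666 to 836 CPM in line 15 (median 792) and 477 to 1072 CPM in line 18 (median 794). The group difference was -0.00 on the log2 scale (SE 0.20, adjusted p by edgeR 0.997). It was -1.02 (adjusted p 5.1e-07) without line 19 and 0.56 (adjusted p 6.7e-05) without line 24. Timp2, the inhibitor that helps Mmp14 activate Mmp2, differed by -0.10 (SE 0.06, adjusted p 0.16), and Mmp2 by 0.23 (SE 0.10, adjusted p 0.056). This value of Mmp2 is an average over days on which the groups stood in opposite order, as described below, and it was -0.020 in the mixed libraries alone and -0.037 with library as a term. Mmp14 was 131 CPM ± 36.7 in KO and 109 CPM ± 45.2 in control samples (SD, n = 21 each; log2 fold change 0.34, SE 0.10, adjusted p by edgeR 0.0037). It was 0.09 (adjusted p 0.48) without line 19. Mmp11, known for its stromal expression in carcinomas, was 13.7 CPM ± 4.16 against 16.6 CPM ± 5.86 (SD, n = 21 each; log2 fold change -0.28, SE 0.10, adjusted p 0.014) and lost its call without line 18 or line 24. With a single sum per line, 0 genes passed in edgeR, and 1162 had an unadjusted p under 0.05.

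**Figure D2:**
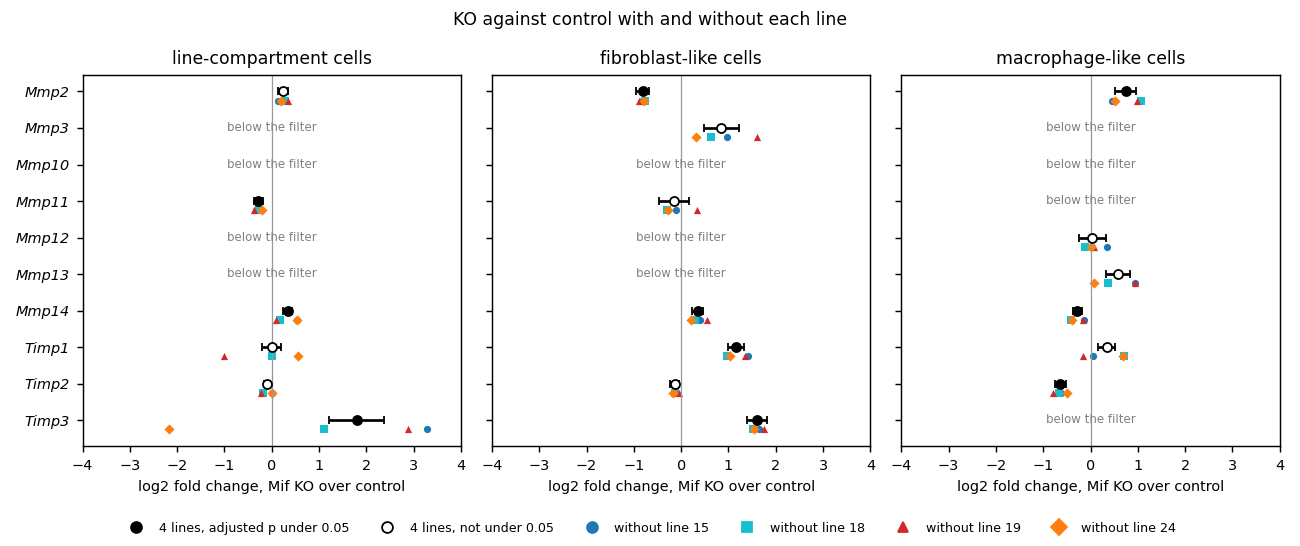
Log2 fold change of KO over control (bars: SE) for each gene tested in line-compartment, macrophage-like and fibroblast-like cells. Filled symbols have an edgeR adjusted p under 0.05, and the coloured points give the value with 1 line left out. In the line compartment the points for Timp3 run from -2.17 to 3.28, while in fibroblast-like cells the points for Timp1, Timp3 and Mmp2 stay on the side of the main value.

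Day 0 and the later days of a line were captured in the same library, which allowed a comparison within lines (7 samples of day 0 and 23 of later days, 30 in all). In the line compartment 4 of the 8 members tested changed, 3 higher and 1 lower at later days, where 48.9% of all genes changed, 24.8% higher and 24.1% lower. Timp1 was 484 CPM ± 246 at day 0 and 842 CPM ± 336 later (SD, n = 7 and 23), higher by 0.88 on the log2 scale (SE 0.15, adjusted p by edgeR 1.7e-05). Mmp14 rose from 88.4 CPM ± 28.7 to 123 CPM ± 36.4 (log2 fold change 0.66, SE 0.15, adjusted p 0.00082). Timp2 fell from 601 CPM ± 69.3 to 405 CPM ± 69.0 (log2 fold change -0.48, SE 0.08, adjusted p 1.8e-05). Timp1, Mmp14 and Timp2 kept direction and call in each of 10 alternatives. Mmp13 passed as well (1.04, SE 0.38, adjusted p 0.024), at levels of 0 to 3.597 CPM, and missed the threshold without the low-count filter (adjusted p 0.051) and with another hashtag call (0.054). UMIs of fibroblast and macrophage markers in the line compartment moved with the days. The sum of the 10 fibroblast markers was 4.02 to 24.5 CPM at day 0 and 8.78 to 37.4 CPM at days 6 to 16, and that of the 13 macrophage and monocyte markers 14.7 to 54.7 and 13.4 to 191 CPM. Their part in the changes was not tested.

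Mmp2 and Timp1 changed differently in the 2 groups after day 0, by an interaction term. Mmp2 at day 0 was 39.8, 40.2 and 40.3 CPM in the 3 control samples and 90.7, 98.9, 118 and 118 CPM in the 4 KO samples, so all 4 KO samples lay above the control samples. The same was true of Mmp11, Mmp14 and Timp2 at day 0, and of 30.4% of the 8031 genes with a mean of at least 10 CPM, while 21.8% had all KO samples below. By day 16 the order was the reverse, with 63.8 to 99.2 CPM in the 6 control tumours (median 71.9) and 42.3 to 62.6 CPM in the 6 KO tumours (median 53.1), and the groups again did not overlap. Among the same 8031 genes, 9.29% had all KO tumours below the control tumours at day 16, and Mmp2 was the only member to do so. The difference between the changes was -1.15 on the log2 scale (SE 0.22, adjusted p by edgeR 0.00017). Timp1 went the other way. At day 0 it was 149 and 154 CPM in line 24 and 546 and 564 CPM in line 19, against 559, 598 and 821 CPM in the control samples. Line 24 thus lay far below the control samples, and line 19 near the lowest of them. The share of all genes with such a pattern was not counted. Its difference between the changes was 1.17 (SE 0.17, adjusted p by edgeR 7.9e-06). For both genes the call held in each of 10 alternatives. With a line left out, the difference ran from -1.21 to -1.07 for Mmp2 and from 1.01 to 1.43 for Timp1. In all, 3 of the 6 members tested differed, 1 higher and 2 lower, beside 38.1% of all genes (18.1% higher, 20% lower). The third was Mmp11 (-1.10, SE 0.39, adjusted p 0.028), which lost its call without line 15, line 19 or line 24. Line 18 enters the day 0 group with 1 sample, because its second hashtag was nearly empty.

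**Figure D3:**
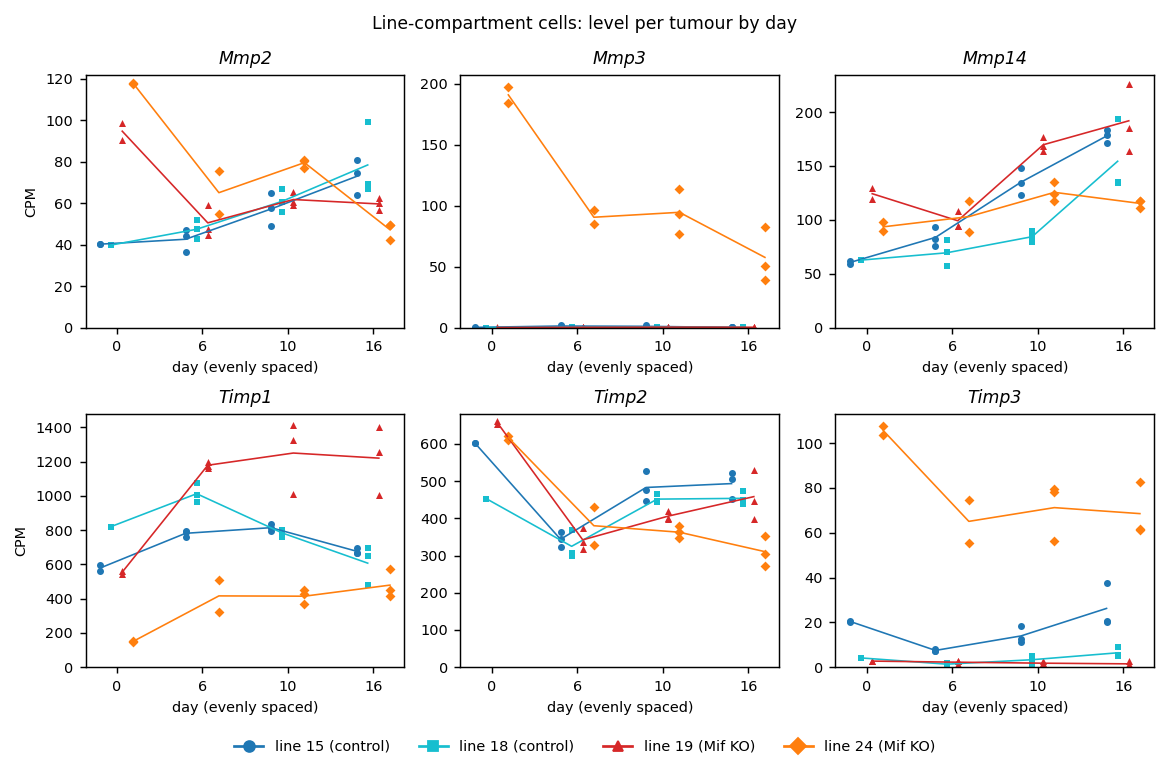
CPM of Mmp2, Mmp3, Mmp14, Timp1, Timp2 and Timp3 in the line compartment by day (evenly spaced on the axis), 1 point per sample, coloured by line, with lines joining the means of each line. Mmp2 starts above 90 CPM in both KO lines and near 40 CPM in both control lines and crosses by day 16, and line 24 stands apart for Mmp3 and Timp3 and has the 8 lowest Timp1 values, its other 2 overlapping samples of other lines.

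From day 6 to day 16, 6 of the 10 members rose in the line compartment and none fell, where 42.1% of all genes changed, 21.8% up and 20.3% down. The members' median log2 fold change was 0.26, against 0.01 over all genes. Mmp14 was 57.1 to 117 CPM at day 6 (median 88.4, 11 tumours), 79.2 to 177 CPM at day 10 (median 129, 12 tumours) and 111 to 226 CPM at day 16 (median 168, 12 tumours). Of the day 16 tumours, 10 of 12 lay above every day 6 tumour (log2 fold change 0.75, SE 0.08, adjusted p by edgeR 1.3e-07). The exceptions were 2 of the 3 late tumours of line 24, whose Mmp14 was 111 to 118 CPM at day 16. How many of all genes separate day 16 from day 6 as far was not counted. Mmp11 rose from 6.41 to 13.4 CPM (median 9.91) to 10.3 to 25.003 CPM (median 20.2), a log2 fold change of 0.97 (SE 0.09, adjusted p 2e-08). Timp3 rose by 0.79 (SE 0.24, adjusted p 0.0098), Timp2 by 0.25 (adjusted p 0.0045), Mmp2 by 0.26 (adjusted p 0.037) and Mmp12 by 1.12 (adjusted p 0.019, at levels of 0 to 4.59 CPM). Without the low-count filter 2 members were lower, Mmp3 by -0.69 (adjusted p 0.0023) and Timp1 by -0.18 (adjusted p 0.017). Mmp14 and Mmp11 kept their calls in each of 11 alternatives. The other 4 lost theirs without line 15, for example Timp3 at 0.29 (adjusted p 0.45). Mmp12 in the line compartment, 0.58 CPM over all its cells, was below the 2.54 CPM of T-cell-like cells, and over the same days it rose in macrophage-like cells. The 13 macrophage and monocyte markers summed in the line compartment to 13.4 to 189 CPM at day 6 (median 45.2) and 16.5 to 191 CPM at day 16 (median 54.8). The 10 fibroblast markers summed to 8.78 to 28.4 CPM at day 6 (median 14.6) and 15.9 to 37.4 CPM at day 16 (median 25.2). Dcn, 1 of these 10, was 0.95 to 12.9 and 0.94 to 12.4 CPM. Their part in the rises was not tested.

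In macrophage-like cells the clearest change was with time. Mmp12 was 4.36 to 53.1 CPM at day 6 (median 16.9, 11 tumours), 17.6 to 376 CPM at day 10 (median 140, 12 tumours) and 100 to 356 CPM at day 16 (median 234, 12 tumours). All 12 tumours of day 16 lay above all 11 of day 6 (log2 fold change 3.30, SE 0.38, adjusted p by edgeR 8.7e-07), in both groups and all 4 lines. The 3 WT tumours had 20.2 CPM at day 6, 187 CPM at day 10 and 229 CPM at day 16. Mmp13 went from 5.30 to 56.4 CPM (median 19.7) to 30.4 to 131 CPM (median 73.1), with 9 of 12 late tumours above every early one (log2 fold change 1.82, SE 0.32, adjusted p 0.00025). For neither gene was it counted how many of all genes separate day 16 from day 6 as far. Mmp14 rose by 0.66 (SE 0.11, adjusted p 0.00021) and Timp1 fell by 0.54 (SE 0.15, adjusted p 0.016). In all, 4 of the 8 members tested changed, 3 higher and 1 lower, where 12.4% of all genes did (6.7% higher, 5.66% lower). The rises of Mmp12, Mmp13 and Mmp14 kept their calls in each of 10 alternatives. The fall of Timp1 lost its call in 3, at -0.24 (adjusted p 0.21) with another hashtag call. Timp1 in this class was not set apart from the T-cell-like level above, and it fell over the same days in fibroblast-like cells too.

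The rise of Mmp12 was seen in the share of cells as well as in the sums. Thinned to 1000 UMIs, a Mmp12 UMI was found in 1.76% of control and 1.46% of KO macrophage-like cells at day 6, in 9.02% and 10.0% at day 10, and in 11.8% and 10.5% at day 16. The unthinned shares were 3.53% and 2.74%, 14.5% and 18.2%, and 19.4% and 17.7%, at median depths of 1737 to 3588 UMIs. The summed level of the 13 macrophage and monocyte markers in the class moved over the same days, from 7053 to 11476 CPM at day 6 (median 7992) to 8056 to 19379 CPM at day 16 (median 15964), and its part in the change was not tested. All 13 markers were above 1 CPM in the class.

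**Figure D4:**
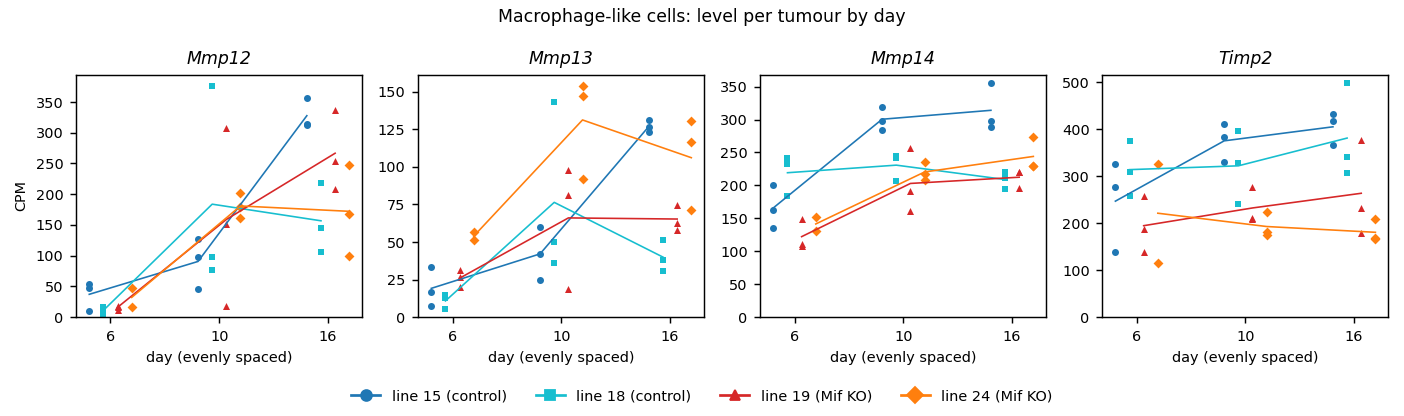
CPM of Mmp12, Mmp13, Mmp14 and Timp2 in macrophage-like cells by day (evenly spaced on the axis), 1 point per tumour, coloured by line, with lines joining line means. Mmp12 at day 16 (100 to 356 CPM) does not overlap day 6 (4.36 to 53.1 CPM), and Timp2 is lower in both KO lines than in both control lines by median.

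Between groups, Mmp12 in macrophage-like cells differed by less than the spread between tumours (log2 fold change 0.04, SE 0.28, adjusted p by edgeR 0.94), with 4.36 to 376 CPM in 18 control and 12.1 to 337 CPM in 17 KO tumours. Timp2 was lower in KO tumours: 116 to 378 CPM (median 209) against 139 to 498 CPM in control tumours (median 335), a log2 fold change of -0.64 (SE 0.12, adjusted p by edgeR 7.2e-05). Lines 15 and 18 had medians of 366 and 328 CPM, and lines 19 and 24 of 210 and 178 CPM. The 3 WT tumours, whose Mif was at the control level, had 198, 252 and 240 CPM at days 6, 10 and 16. With cells thinned to 1000 UMIs, 24.8% and 25.7% of macrophage-like cells of lines 15 and 18 had a Timp2 UMI, against 16.5% in line 19, 13.2% in line 24 and 16.5% in the WT tumours, so the WT share lay with line 19. In T-cell-like cells of the 4 lines and the WT tumours it was 11.5% to 15.2%. The unthinned macrophage shares were 51.2%, 50.4%, 34.0%, 29.6% and 41.2%. The groups overlapped, and Timp2 kept its direction in each of 13 alternatives, with an adjusted p of 0.064 at 1 sum per line (-0.79) and of 0.061 in the mixed libraries alone (-0.47) and of 0.13 with library as a term (-0.48). In all, 3 of the 6 members tested differed, 1 higher and 2 lower, where 35% of all genes did (17.6% higher, 17.5% lower). The other calls were Mmp14 (-0.28, adjusted p 0.018), lost without line 15 (-0.14) or line 19 (-0.16), and Mmp2 (0.74, adjusted p 0.0092), whose level in the class was at that of T-cell-like cells. Without the low-count filter Timp3 (2.15, edgeR adjusted p 2.4e-05) and Mmp3 (5.43, edgeR adjusted p 5.2e-07) passed too. Mmp3 is not described as a level of this class, for the reasons given above. The Timp3 level in the class lay above that of T-cell-like cells of the same tumour in 17 of 35 tumours and below it in 17.

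Fibroblast-like cells, in which Xist was 267 CPM against 6.09 CPM in the line compartment, differed between tumours of KO and control lines. Of the 7 members tested, 3 were higher and 1 lower in KO tumours, where 19.7% of all genes differed, 10.4% higher and 9.31% lower. This comparison covers 14 KO and 17 control tumours of days 6 to 16. Timp3 was 423 to 1681 CPM in KO tumours (median 767) and 95.7 to 529 CPM in control tumours (median 268). Of the 14 KO tumours, 12 lay above every control tumour, and 13 of the 17 control tumours lay below every KO tumour (log2 fold change 1.59, SE 0.21, adjusted p by edgeR 6.7e-07). The share of all genes that part the groups as far in this class was not counted. Timp1 was 2051 to 6966 CPM in KO tumours (median 4572) and 974 to 5363 CPM in control tumours (median 1683), a log2 fold change of 1.16 (SE 0.17, adjusted p 2e-06). The groups overlapped for Timp1, the 2 highest control values being those of line 15 at day 6 (4613 and 5363 CPM).

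Mmp2 went the other way in the same cells. It was 266 to 777 CPM in KO tumours (median 425) and 290 to 1098 CPM in control tumours (median 831), and 12 of 17 control tumours lay above every KO tumour (log2 fold change -0.81, SE 0.14, adjusted p by edgeR 3.9e-05). A single control tumour, of line 15 at day 6, was low at 290 CPM. For Mmp2 too, the share of all genes with as little overlap was not counted. Timp3, Timp1 and Mmp2 kept direction and call in each of 13 alternatives, among them 1 sum per line, at 1.52 (adjusted p 0.0015), 1.02 (0.0093) and -0.87 (0.0093), and the mixed libraries alone, at 1.95, 1.51 and -0.82. Those 2 settings called 490 and 311 genes, against 1016 in the main test. In the 3 WT tumours, whose Mif was at the control level, Timp3 was 274 to 717 CPM, Timp1 2952 to 4024 CPM and Mmp2 409 to 709 CPM. All 3 lay above the control median for Timp3 and Timp1 and below it for Mmp2. For Timp1 and Mmp2 they lay inside the ranges of both the KO and the control tumours.

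The line cells of the same tumours gave other levels. Timp3 in the line compartment of line 19 was at most 2.82 CPM while its fibroblast-like cells had 423 to 1681 CPM. Timp1 in the line compartment of line 24 was at most 575 CPM while its fibroblast-like cells had 3369 to 6454 CPM. For each gene the other KO line was high in the line compartment too. As given above, line 24 was the highest line for Timp3, and line 19 had the highest Timp1 median from day 6 on. The part of free RNA of line cells in the fibroblast-like sums was not tested. The summed level of the 10 fibroblast markers in the class was 3882 to 6870 CPM in KO tumours (median 5301) and 4793 to 9175 CPM in control tumours (median 7250), with all 10 above 1 CPM in the class. The part of this difference in the results was not tested. Thinned to 1000 UMIs, 42.6%, 35.8% and 31.8% of KO fibroblast-like cells had a Timp3 UMI at days 6, 10 and 16, against 20.3%, 12.3% and 27.5% of control cells and 1.23% of all T-cell-like cells. The unthinned shares were 74.4%, 69.1% and 66.9% against 54.7%, 42.9% and 54.4%.

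**Figure D5:**
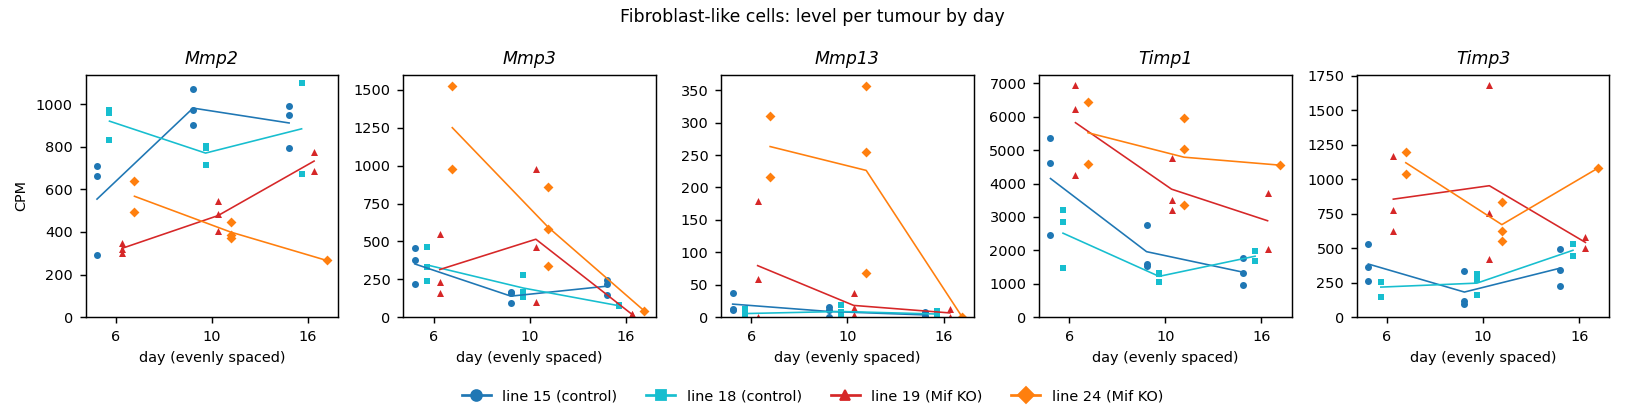
CPM of Mmp2, Mmp3, Mmp13, Timp1 and Timp3 in fibroblast-like cells by day (evenly spaced on the axis), 1 point per tumour with at least 20 such cells, coloured by line, with lines joining line means. Timp3 and Timp1 lie higher and Mmp2 lower in lines 19 and 24 at most days, and Mmp13 exceeds 50 CPM in tumours of lines 19 and 24 alone.

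Other members in fibroblast-like cells differed by line or did not pass. Mmp14 differed by 0.35 (SE 0.12, adjusted p by edgeR 0.032) between the groups and missed the threshold in 8 of 13 alternatives, at 0.12 with another hashtag call. Mmp3 was 18.1 to 1527 CPM in KO tumours (median 402) and 70.9 to 462 CPM in control tumours (median 218), with a log2 fold change of 0.85 (SE 0.38, adjusted p by edgeR 0.11), and of 1.61 (adjusted p 0.0001) without line 19. Line 24 at days 6 and 10 had the widest Mmp3 range, 338 to 1527 CPM in 5 tumours. Mmp13 did not pass the filter. It was 68.3 to 356 CPM in those 5 tumours of line 24, 0.76 to 179 CPM in the 6 tumours of line 19 at the same days, and 0 to 37.5 CPM in all 17 control tumours. Without the filter its log2 fold change was 3.10 (SE 0.43, adjusted p by edgeR 3.5e-08 over 17489 genes). Mmp10 did not pass the filter either, at 0 to 43.2 CPM in KO (median 6.12) and 3.602 to 103 CPM in control tumours (median 18.9), and was lower in KO without it (-1.001, SE 0.33, adjusted p 0.038). Mmp3 passed the threshold without the filter as well (0.80, adjusted p 0.044).

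With time, Mmp3, Mmp13 and Timp1 fell in fibroblast-like cells while Mmp11 and Timp2 rose. From day 6 to day 16, 5 of the 9 members tested changed, 2 higher and 3 lower, where 4.47% of all genes changed (1.67% higher, 2.8% lower). Mmp3 was 160 to 1527 CPM at day 6 (median 378, 11 tumours), 92.3 to 976 CPM at day 10 (median 222, 12 tumours) and 18.1 to 247 CPM at day 16 (median 74.5, 8 tumours). Of the 11 tumours of day 6, 7 lay above every day 16 tumour (log2 fold change -1.87, SE 0.42, adjusted p by edgeR 0.0078). How many of all genes separate the days as far in this class was not counted. Mmp13 fell from 0 to 310 CPM (median 12.1) to 0 to 12.9 CPM (median 1.23), a log2 fold change of -3.26 (SE 0.77, adjusted p by edgeR 0.011). With so few UMIs at day 16, Mmp13 passed the low-count filter mainly through earlier tumours. Its place among the 3 lower members is shaped by the filter. In macrophage-like cells Mmp13 was higher at day 16 than at day 6. Timp1 fell from a median of 4592 CPM to 1865 CPM (log2 fold change -1.04, SE 0.20, adjusted p 0.0021). Mmp11 rose by 1.35 (adjusted p 0.014) and Timp2 by 0.42 (adjusted p 0.039). Without the low-count filter Mmp10 was higher at day 16 as well (1.14, SE 0.26, edgeR adjusted p 0.0011).

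These changes in fibroblast-like cells rest on few late tumours: of the 8 at day 16, 3 are of line 15, 2 of line 18, 2 of line 19 and 1 of line 24, with 22 to 82 cells each. Without line 15 only 20 genes were called, and Timp1 (-0.68, adjusted p 0.22), Mmp13 (-3.56, adjusted p 0.14), Mmp11 and Timp2 missed the threshold, while Mmp3 kept its call there and lost it without line 18 (-1.70, adjusted p 0.072) and under the stricter gate (-1.14, adjusted p 0.32). The calls of Mmp13 were also lost with DESeq2 (-2.23, adjusted p 0.18) and without line 24 (-2.50, adjusted p 0.073).

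Genes that act with the 10 members were taken from 6 lists. In the line compartment after day 0, 22 of the 24 genes tested in the list of AP-1, NF-kB and ETS factors and cytokine inputs rose and none fell (median log2 fold change 1.04), where 24.8% of all genes rose and 24.1% fell. The fibroblast, macrophage and monocyte markers whose sums in the line compartment over these days are given above moved with it, and their part was not tested. Il6, a cytokine, rose by 3.29 (0.54 to 4.97 CPM by mean; edgeR adjusted p 2.2e-07). Of the plasminogen system, whose product plasmin activates metalloproteinase proenzymes, 7 of 9 rose, led by Plat, a plasminogen activator, with 2.05 (22.5 to 83.7 CPM; adjusted p 4.1e-09). Of activators and inhibitors, 8 of 11 rose and 1 fell. Lcn2, which binds and stabilises Mmp9, rose by 1.79 (adjusted p 0.0024) and Reck, a membrane-anchored inhibitor, fell by 0.46 (adjusted p 0.013). With a line left out, Il6 ranged from 2.23 (without line 24) to 3.77 and Lcn2 from 1.35 to 2.85 (without line 19), and Reck lost its call without line 19 (-0.33) or line 24. Of cathepsins and cystatins, 2 of 9 rose and 4 fell.

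In the line compartment, KO against control, 13 of 23 genes of the AP-1, NF-kB and ETS list were higher and 2 lower (median 0.37), where 26% of all genes were higher and 25.1% lower. The calls of this comparison depend on the libraries and lines, with 6057 genes called in all, 0 with 1 sum per line, 472 in the mixed libraries alone and 1695 with library as a term. Among the list was Fosb, an AP-1 subunit, at 284 against 79.6 CPM (log2 fold change 1.90, edgeR adjusted p 9.6e-08). Fosb was also higher in KO tumours in macrophage-like cells (1.21, adjusted p 2.35e-07) and in fibroblast-like cells (0.88, adjusted p 2.8e-06). In the line compartment Fosb was 0.81 without line 24 and 2.57 without line 19, and in each of the 3 classes it lost its call in the mixed libraries alone. Of the ADAM and ADAMTS list, 4 of 13 were higher and 2 lower in the line compartment, a share near that of all genes. Its member Adamts9 was higher (2.12, adjusted p 2.9e-06), at 0.83 without line 24 and 3.09 without line 18, and lost its call in the mixed libraries alone and with 1 sum per line. Caveolin gene Cav1 was lower in both the line compartment (-0.74, adjusted p 5.1e-10) and fibroblast-like cells (-0.89, adjusted p 6.1e-08). Cav1 was -0.40 in the mixed libraries alone in the line compartment and lost its call there with 1 sum per line.

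In macrophage-like cells, Mmp9, a gelatinase and a relative of Mmp2, was 6.19 CPM in KO and 46.1 CPM in control tumours by mean (log2 fold change -2.80, edgeR adjusted p 0.00015), and Ctsk, the cathepsin of osteoclasts, was 8.50 against 64.1 CPM (-2.93, adjusted p 1.5e-05). Osteoclast-like cells, gated by a list that holds Ctsk, had a summed Mmp9 level of 4149 CPM and reached 20 cells in control tumours alone. The part of such cells in the macrophage-like sums was not tested. With library as a term Mmp9 and Ctsk missed the threshold. Of cathepsins and cystatins, 5 of 8 were lower and 1 higher in KO macrophage-like cells, where 17.5% of all genes were lower and 17.6% higher. In fibroblast-like cells, KO tumours had more of the Kunitz inhibitor gene Tfpi2 (176 against 59.0 CPM; 1.68, adjusted p 1.6e-11) and less of the protease inhibitor gene Serpine2 (379 against 1568 CPM; -2.02, adjusted p 4.8e-08) and of Mmp19 (94.9 against 245 CPM; -1.32, adjusted p 1.9e-07).

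Against the line compartment, fibroblast-like cells had far more Mmp23 (116 against 0.25 CPM; log2 fold change 9.28, edgeR adjusted p 3.4e-40), Tfpi2 (10.13) and Adamts2, a procollagen peptidase (9.95), and less of the membrane-type Mmp16 (7.60 against 30.4 CPM; -1.93). Genes as low in the line compartment as Mmp23 could pass the low-count filter only through fibroblast-like cells. Calls of such genes are therefore not read as a result. Of the ADAM and ADAMTS list, 11 of 15 were higher and 3 lower there, where 34.2% of all genes were higher and 39.9% lower. The filter shapes this count too. Macrophage-like cells had more of Plau, the urokinase gene (92.1 against 18.6 CPM; 2.57), and of the cathepsin gene Ctss (1537 against 14.7 CPM; 7.41). Cathepsins and cystatins as a list had 7 of 9 genes higher and 1 lower in macrophage-like cells, where 39.5% of all genes were higher and 43.4% lower.

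Over the 45 samples of the line compartment, 8031 genes with a mean of at least 10 CPM were ranked by their Spearman correlation with each member. The samples of a line share that line and mostly a library, so these values describe the set. The nearest gene to Mmp2 was Mxd4 (0.93), followed by Man2b2 and App (0.89 each). Timp3 had Aebp1 (0.90), Tmem45a and Cd276 (0.90 each). Timp2 had the lysosomal genes Lamp1 (0.90) and Glmp (0.88). Timp1 had Hist1h4i, Rab3b and Tnfrsf12a (0.88, 0.88 and 0.87), Mmp14 had Clu (0.87), Mmp11 had Ginm1 (0.86) and Mmp3 had Adamts14 (0.77).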

How the data were processed

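Single-cell RNA libraries of mouse tumours were read from 6 matrices, which hold UMI counts of genes and hashtags by barcode as the authors deposited them, not normalized, per the file headers. Alignment used Cell Ranger 6.0.0 and mm10, per the submitters' processing notes. No column of samples was left unused (0 columns). Barcodes were kept from 300 genes upward and up to 15% mitochondrial UMIs, and were assigned to tumours by HTODemux (Seurat 5.3.0, R 4.3.3), which removes doublets between tumours; doublets within a tumour remain. Hashtags with under 0.1% of a library's hashtag counts were dropped. Cells were gated into classes by the number of marker genes with a UMI. Cells with markers of 2 kinds or in no class were left out of the tests. The shares of UMIs and cells by class count them in the total. UMIs were summed per tumour and class with at least 20 cells, and CPM were taken without further scaling. Fits used edgeR 4.0.16 (TMM, filterByExpr, quasi-likelihood test, Benjamini-Hochberg adjustment over all genes tested, threshold 0.05), and DESeq2 1.42.0 as an alternative. The low-count filter used the 2 groups compared, and for day 16 against day 6 the design of the fit. The tests were tested on simulated data. Python 3.11.15, numpy 2.4.6, pandas 2.3.3 and scipy 1.17.1 were used for sums and shares.

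The text gives all 10 members. From each of 6 lists, the called gene with the largest change each way was taken in each comparison, and examples of these are printed. The members and lists were chosen with earlier results of these data known. Day 16 against day 6 in macrophage-like cells, and both comparisons within fibroblast-like cells, were added after seeing the data. Alternatives were DESeq2, RLE size factors, no low-count filter, a stricter cell filter (at least 1000 UMIs, at most 10% mitochondrial counts), another hashtag call (highest at least 3 times the second, at least 20 counts), stricter gates, each line left out, 1 sum per line, the mixed or single-line libraries alone, library as a term, and no day 0. Nothing in the labels says that tumours of a line came from separate cultures, so p-values measure the spread between these samples.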

Additional observations from a re-analysis of the deposited data

Results flagged for a closer look

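Of 91 sets of tumours of 1 line checked for a tumour far from the others, 11 had one (12.1%). The tumours of a set span several days, between which the levels of some members changed, so the rate of about 1 in 20 that chance gives for like samples does not apply, and nothing is read from the number. In the line compartment these were Mmp10 in line 15 at day 6 (3.01 CPM, the other tumours 0 to 0.216), Mmp2 in line 18 at day 16 (99.2 CPM, the others 42.9 to 69.5) and Timp3 in line 15 at day 16 (37.8 CPM, the others 7.17 to 20.6). In fibroblast-like cells, 1 line 15 tumour of day 16 was highest for both Mmp10 (103 CPM, the others 3.602 to 54.1) and Mmp11 (183 CPM, the others 18.0 to 87.6). Mmp13 in the same class had a single high tumour in line 15 at day 6 (37.5 CPM, the others 0 to 15.4) and in line 19 at day 6 (179 CPM, the others 0 to 58.3).

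In macrophage-like cells, Mmp13 was high in a line 18 tumour of day 10 (143 CPM, the others 5.30 to 51.6) and Timp3 in a line 15 tumour of day 16 (8.66 CPM, the others 0.818 to 4.58). Mmp3 was high in a line 19 tumour of day 10 (265 CPM, the others 0 to 3.45), where a single cell held all of its UMIs, and in a line 24 tumour of day 6 (147 CPM, the others 0 to 52.9).

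The members that changed differently after day 0 in KO and control lines, by the interaction term, were Mmp2 by -1.15, Mmp11 by -1.10 and Timp1 by 1.17 on the log2 scale, with edgeR adjusted p-values of 0.00017, 0.028 and 7.9e-06 over 30 samples.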

How the results depend on the processing

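For the members, 670 of 822 recomputed values kept direction and side of the threshold, 74 lost and 35 gained a call, and 43 changed sign. For the other named genes 913 of 1056 kept both, 142 lost a call and 1 changed sign. By replicate number, no paired analysis was possible because the labels give the control and KO groups none in common. A block by library was fitted instead (library as a term), since both groups were captured in each of the 2 mixed libraries. The cause of each change was not tested. The line is the unit that limits the comparison of groups: there are 2 lines in each, and the 2 KO lines differ. Low members (Mmp10, Mmp12 and Mmp13 in the line compartment) rest on few UMIs, and fibroblast-like sums at day 16 on 22 to 82 cells.

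Counts of called genes moved by over 1.5 times in 20 of 111 settings. For KO against control in the line compartment (6057 genes) they were 0 with 1 sum per line, 472 in the mixed libraries alone and 1695 with library as a term, and 4322 to 7490 with a line left out. In macrophage-like cells (2660) they were 71, 386 and 375, and 826 to 3168 with a line left out. In fibroblast-like cells (1016) they were 490, 311 and 400, with 591 under a stricter gate and 585 to 1170 with a line left out. For day 16 against day 6 they were 769 under a stricter gate and 164 to 1343 with a line left out in macrophage-like cells (1223). In fibroblast-like cells (334) they were 603 with no low-count filter, 94 under a stricter gate and 20 to 420 with a line left out. The interaction (4462) gave 1836 to 3740 with a line left out.

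Values that changed sign were as follows, as log2 fold changes. KO against control in the line compartment: Timp1 was 0.0034 with DESeq2, 0.0051 with RLE size factors, 0.0029 without the low-count filter, 0.015 with a stricter cell filter, 0.016 with another hashtag call, 0.028 under a stricter gate, 0.14 in the mixed libraries, 0.11 with library as a term, 0.22 without day 0 and -1.02 (without line 19) to 0.56 (without line 24) with a line left out. Mmp28 was -1.31 (without line 24) to 0.20 (without line 19) with a line left out. Timp2 was -0.24 (without line 19) to 0.013 (without line 24) with a line left out. Timp3 was -2.17 (without line 24) to 3.28 (without line 15) with a line left out. Mmp2 was -0.020 in the mixed libraries and -0.037 with library as a term. Later days against day 0: Mmp3 was 0.64 with DESeq2. Mmp11 was -0.22 (without line 15) to 0.33 (without line 19) with a line left out. Mmp2 was -0.44 (without line 15) to 0.014 (without line 24) with a line left out. Day 16 against day 6 in the line compartment: Mmp13 was 0.30 under a stricter gate and -0.47 (without line 18) to 0.043 (without line 19) with a line left out. Mmp10 was -1.34 (without line 24) to 1.15 (without line 15) with a line left out. Timp1 was -0.31 (without line 24) to 0.0021 (without line 18) with a line left out. The interaction: Timp3 was -0.23 (without line 24) to 0.067 (without line 15) with a line left out. KO against control in macrophage-like cells: Mmp12 was -0.0042 without the low-count filter, -0.34 with 1 sum per line, -0.33 in the mixed libraries, -0.25 with library as a term and -0.12 (without line 18) to 0.34 (without line 15) with a line left out. Timp1 was -0.16 (without line 19) to 0.71 (without line 18) with a line left out. Day 16 against day 6 in macrophage-like cells: Mmp3 was 1.54 with another hashtag call and 0.48 under a stricter gate. Timp3 was -0.42 with another hashtag call and -0.68 (without line 15) to 0.51 (without line 19) with a line left out. Mmp2 was 0.10 under a stricter gate and -0.26 (without line 18) to 0.22 (without line 24) with a line left out. KO against control in fibroblast-like cells: Timp2 was 0.028 under a stricter gate. Mmp11 was -0.31 (without line 18) to 0.34 (without line 19) with a line left out. Day 16 against day 6 in fibroblast-like cells: Timp3 was -0.013 without the low-count filter, -0.25 with another hashtag call, -0.25 under a stricter gate and -0.34 (without line 18) to 0.31 (without line 19) with a line left out. Mmp2 was -0.0074 (without line 19) to 0.52 (without line 18) with a line left out.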
